A study of Mus musculus with 6 samples.

Results

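Chromatin accessibility was examined at 10 genes that mark fibroblasts and the extracellular matrix they make in skeletal muscle: the receptors Pdgfra and Pdgfrb, the transcription factors Tcf7l2, Osr1 and Tcf21, the collagen genes Col1a1, Col1a2 and Col3a1, the proteoglycan gene Dcn and the fibronectin gene Fn1. An interval of the count table was assigned to one of them when it overlapped the gene body or lay within 10 kb of one of its transcription start sites (TSSs) in the GENCODE vM1 annotation of mm9. This gave 16 of the 39768 intervals, at 7 of the 10 genes, and no interval was assigned to Dcn, Osr1 or Tcf21. For comparison, 60.2% of the 22380 annotated protein-coding genes had an interval by the same rule.

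ATAC-seq, in which the Tn5 transposase cuts and tags open chromatin, was done on 50000 nuclei per library from muscle of 7-week-old mice, labelled C57BL/6 and by the study's methods backcrossed to C57BL/6N, with 3 libraries in each of 2 groups. All mice were H2A.Z-1 flox/flox and also H2A.Z-2 flox/flox, the floxed loci being the pair of genes that encode the histone variant H2A.Z. The H2A.Z dKO mice also carried the HSA-Cre transgene and the control (CTL) mice, labelled WT, did not. The HSA promoter drives Cre in post-mitotic muscle fibres, so that by the design of the model the nuclei of fibroblasts and other cells between the fibres are not the ones recombined. The labels name the tibialis anterior as the source, whereas the study's methods describe hind-limb muscles.

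Fibroblasts of muscle lie between the fibres and produce the interstitial matrix. PDGFRα marks the fibro-adipogenic progenitors, from which matrix-producing fibroblasts and fat cells of muscle can arise, and PDGFRβ marks pericytes and other mural cells as well as fibroblasts. TCF7L2 is a transcription factor of the Wnt pathway used as a marker of muscle connective tissue, and OSR1 and TCF21 are transcription factors of mesenchymal progenitors. Type I collagen, built of the products of Col1a1 and Col1a2, and type III collagen form fibrils, decorin (Dcn) binds those fibrils, and fibronectin connects matrix to cells through integrins. Fibroblast nuclei are a minority in muscle, and in bulk nuclei fewer nuclei of a type and lower accessibility in each of them cannot be told apart.

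The libraries held 3520008 to 6117245 counted fragment ends in the intervals. Of those counts, 74.6% to 74.9% lay within 1 kb of a TSS in the CTL libraries. The share was 77.0% in H2A.Z dKO replicate 1 and 73.2% and 73.5% in the other H2A.Z dKO libraries. Of 18 muscle fibre genes, 17 had an interval, all but Myh2, against 60.2% of protein-coding genes and 80.0% of 10 endothelial genes. The 2 intervals within the span from exon 2 to exon 4 of H2afz, the gene of H2A.Z-1, had 79, 69 and 33 counts in CTL replicates 1 to 3 and 57, 52 and 64 in H2A.Z dKO. Scaled to the depth of each library (CPM), this was 12.4 ± 2.83 against 11.3 ± 1.28 (SD, n = 3 each), with overlapping groups, so these counts did not separate the libraries by their labels. They are few and come from nuclei of mixed cells. The study showed the loss of H2A.Z by other means: RT-qPCR, western blot, RNA-seq and immunofluorescence of fibre nuclei.

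The sequences of 5 regions are given here because the comparisons below turn on them: the interval with the largest difference between the groups, the interval just upstream of a Col1a2 TSS, the upstream part of the Col3a1 promoter interval, and the 2 Pdgfra intervals of highest accessibility (for the longer of them the part past the exon). All are on the plus strand of mm9, which is the coding strand of these genes, and capitals mark a match to one of the motifs searched (CAGCTG, an E-box, or GGGCGG, a GC box).

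Col1a1 Peak_25730, chr11:94791105-94791160: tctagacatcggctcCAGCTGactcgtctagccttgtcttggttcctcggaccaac

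Col1a2 Peak_12385, chr6:4455416-4455478: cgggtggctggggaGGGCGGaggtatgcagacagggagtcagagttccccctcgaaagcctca

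Col3a1 Peak_379 upstream part, chr1:45368328-45368382: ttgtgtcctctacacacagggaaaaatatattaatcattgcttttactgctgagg

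Pdgfra Peak_10696 intronic part, chr5:75552375-75552474: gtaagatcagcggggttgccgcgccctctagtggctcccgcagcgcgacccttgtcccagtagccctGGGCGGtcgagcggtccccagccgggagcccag

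Pdgfra Peak_10697, chr5:75553233-75553261: gcgcctgcagctcagagacaacaggacac

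The Pdgfra stretch next to the exon holds 10 CpG dinucleotides and is 72.0% G or C, whereas the Col3a1 stretch holds 0 CpG and is 36.4% G or C. The member intervals were compared in windows of 200 bp centred on each interval, since accessible promoters of broadly active genes are commonly CpG islands. The median ratio of observed to expected CpG was 0.364 in the 16 windows, 0.519 in the windows of all intervals and 0.801 in those of the promoter intervals, an interval being called a promoter interval when its midpoint lay within 1 kb of a TSS. The 8 collagen windows ranged from 0.274 to 0.556 and the 8 others from 0.227 at Pdgfra Peak_10697 to 1.01 at the main Tcf7l2 promoter interval. The median G and C content was 59.3% for the members, 58.0% for all intervals and 65.0% for promoter intervals.

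Of 7 motifs searched on both strands of these windows, GGGCGG (GC box) was in 9 of 16, which is 56.3% against 35.8% of all windows and 56.9% of promoter windows. CCAAT was in 5 windows, 31.3% against 22.8% of all. CTTTGA, the core of the sequence bound by TCF/LEF factors such as TCF7L2, was in 3 windows, 18.8% against 7.89%, and GGAATG, bound by TEAD factors, was in 2, 12.5% against 9.80%. The 2 windows with GGAATG, at Col1a1 Peak_25728 and Peak_25729, overlap and are also among the 9 with GGGCGG. A single site can therefore be counted in both. Single windows held TATAAA (6.25% against 4.61%, at Col1a2 Peak_12386), TGANTCA, the AP-1 site (6.25% against 7.48%, at Tcf7l2 Peak_39017) and CAGCTG, an E-box (6.25% against 17.6%, at Col1a1 Peak_25730). These letters describe the windows only and carry no evidence of binding.

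Of the 16 intervals, 11 were promoter intervals (68.8%, against 52.4% of all intervals), and the nearest TSS of any gene was that of the member for all 16. Their widths spanned 29 to 480 bp (median 145 bp, against 137 bp for all intervals). Per length (RPKM, counts per kilobase of the interval for a fixed depth of the library), their median was 117, against 116 for all intervals and 133 for promoter intervals, and 8 of the 16 lay above the median of all. The member intervals were thus at about the level of the table as a whole, which holds only regions the authors kept after peak calling. The deposited table lists 7 of the 16 as called in both groups, 7 in H2A.Z dKO alone and 2 in CTL alone, where the shares over all intervals were 38.7%, 43.4% and 17.9%. The 2 in CTL alone, Col3a1 Peak_380 and Col1a1 Peak_25728, overlap Peak_379 (by 84 bp) and Peak_25729 (by 56 bp). Those are listed for H2A.Z dKO alone, so both groups had a call at these sites, with different ends.

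The genes were ordered by the mean RPKM over the 6 libraries of their most accessible interval. Pdgfra came first with 201 (range 189 to 216), followed by Col1a1 with 168 (128 to 237), Tcf7l2 with 163 (147 to 196) and Pdgfrb with 130 (91.4 to 195). Col1a2 had 107 (76.5 to 127), Col3a1 99.3 (54.5 to 126) and Fn1 72.4 (49.5 to 88.9). The ranges of every neighbouring pair in this order overlapped, whereas the lowest library of Pdgfra lay above the highest of Fn1. The first place of Pdgfra rests on an interval of 29 bp, and for so short an interval the value per length depends strongly on where its ends were drawn. Col1a1 is likewise placed by Peak_25728 (64 bp), while the overlapping Peak_25729 (202 bp) had 134. Col3a1 is placed by Peak_380 (84 bp), while the overlapping Peak_379 (215 bp) had 67.8. Among promoter intervals of the whole table, the main Tcf7l2 interval stood at percentile 69.3, Pdgfra Peak_10696 at 62.6, Pdgfrb at 47.8, Col1a1 Peak_25731 at 45.1 and Col1a2 Peak_12386 at 28.8. The Col3a1 intervals stood at 22.2 (Peak_380) and 3.19 (Peak_379), and Fn1 at 4.74. Of the remaining promoter intervals, Tcf7l2 Peak_39017 stood at 55.4 and Col1a2 Peak_12385 at 21.0, and Tcf7l2 Peak_39019 was the lowest at 0.471.

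**Figure D1:**
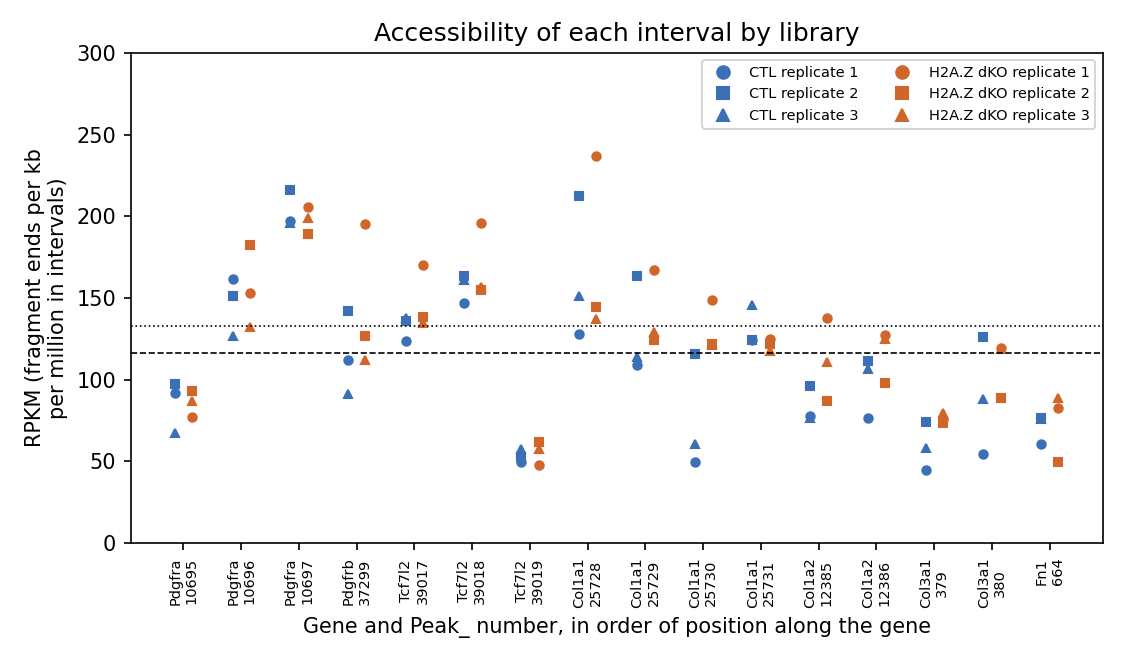
Accessibility per length (RPKM, vertical axis) of each of the 16 intervals (horizontal axis) in each library, with CTL and H2A.Z dKO libraries as separate points; the dashed line is the median of all intervals (116) and the dotted line that of promoter intervals (133). The libraries of the 2 groups are intermixed at most intervals, and the members lie on either side of the median of all intervals.

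The comparison of H2A.Z dKO with CTL asks whether accessibility at these genes of non-fibre cells differed in muscle whose fibres were targeted for H2A.Z loss. Tested with edgeR (quasi-likelihood, Benjamini-Hochberg adjustment over all intervals), 0 of 39768 intervals passed an adjusted p of 0.05 (0%), and 0 of the 16 did. At an unadjusted p of 0.05, 1970 intervals passed (4.95%), 2.64% higher and 2.31% lower in H2A.Z dKO, and of the members 1 was higher and 0 were lower. DESeq2 gave 0 adjusted and 756 unadjusted calls over all intervals. The adjusted p of the members ran from 0.972 to 0.999.

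Of the 16 log2 fold changes, 13 were above 0, where 52.5% of all intervals were, and their median was 0.12 against 0.012 for all. These members are not independent of each other, because 2 pairs of intervals overlap, at Col3a1 and Col1a1, and share counted ends. Of the 16, 7 are listed as called in H2A.Z dKO alone (43.4% of all intervals are) and 2 in CTL alone (17.9%). Such a call favours the group that made it, so the count above 0 and the median are a description. The groups did not overlap for 1 of the 16, with H2A.Z dKO above CTL, which compares with 5.22% of all intervals above and 5.63% below. For 15 of the 16, the 95% confidence interval of the change lay within 2-fold in either direction, and for 8 within 1.5-fold. Where the labels give only replicate numbers, these tests measure the spread between the libraries, which may in part be technical.

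Counts were also summed over the intervals of each gene, and the sums of 17287 genes were tested together. None passed an adjusted p of 0.05 (0%) by edgeR, 777 passed an unadjusted p of 0.05 (4.49%), and 0 of the 7 member genes passed either. The sums of all 7 members had log2 fold changes above 0 (0.036 to 0.36, median 0.12), where 48.7% of all genes did and the median was -0.0040, and their 95% intervals all lay within 2-fold. Each of these genes but Fn1 has an interval listed as called in H2A.Z dKO alone, as 43.4% of all intervals are. That selection favours a higher H2A.Z dKO value, so the shared direction is a description. The groups overlapped for all 7, where 4.23% of all genes had H2A.Z dKO above CTL and 6.37% below it without overlap. Single libraries weighed on this direction: H2A.Z dKO replicate 1 was the highest of the 6 libraries at 8 of the 16 intervals, against 24.5% of all intervals, and CTL replicate 1 the lowest at 8 of the 16, against 12.5%. Without H2A.Z dKO replicate 1, 4 of the 7 sums stayed above 0 and their median was 0.018. The median was higher, 0.26 with 7 of 7 above 0, without CTL replicate 2, and 0.29 with 6 of 7 above 0 without H2A.Z dKO replicate 2. It was 0.096 to 0.18 without each of the other libraries. The 16 intervals together took 254, 312 and 268 CPM in CTL and 358, 279 and 288 CPM in H2A.Z dKO replicates 1 to 3 (278 ± 30.4 against 308 ± 43.2, SD, n = 3 each), so the groups overlapped. H2A.Z dKO replicate 1 was also the library with the highest share of counts in promoters. With the member promoter intervals scaled per 1000000 promoter counts instead, it remained highest, with 355 against 305 and 316 in the other H2A.Z dKO libraries and 270, 318 and 292 in CTL.

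**Figure D2:**
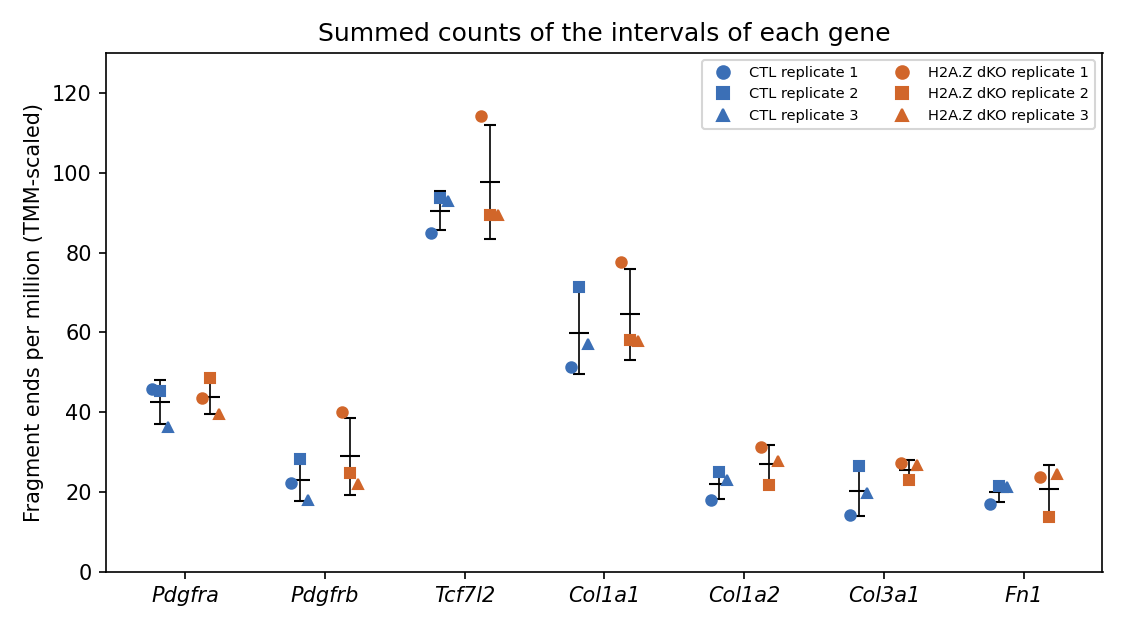
Summed accessibility (CPM, vertical axis) of the 7 member genes with an interval, 1 point per library and a bar at the mean with its SD for each group of 3. For each gene the CTL and H2A.Z dKO points overlap, and H2A.Z dKO replicate 1 is the highest point at Pdgfrb, Tcf7l2, Col1a1, Col1a2 and Col3a1.

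Pdgfra (ENSMUSG00000029231.9, mm9 chr5:75548316-75594229, plus strand) encodes the α receptor for platelet-derived growth factor. It had 3 intervals, with summed counts of 280, 210 and 128 in CTL replicates 1 to 3 and 249, 224 and 202 in H2A.Z dKO replicates 1 to 3. Scaled, these were 42.5 ± 5.44 CPM in CTL and 43.9 ± 4.44 in H2A.Z dKO (SD, n = 3 each), with overlapping groups. The log2 fold change was 0.036 (SE 0.13, 95% interval -0.25 to 0.32, edgeR adjusted p 0.993), the smallest of the 7 genes, and it was -0.054 without CTL replicate 3 and -0.038 without H2A.Z dKO replicate 2. No interval lay at the first annotated TSS of the gene. Peak_10696 (chr5:75552309-75552474), whose intronic part is printed above, lay 200 bp after the TSS of the internal transcript Pdgfra-202 and covered 66 bases of its exon. It had 164, 116 and 74 counts in CTL and 149, 138 and 110 in H2A.Z dKO, a log2 fold change of 0.077 with overlapping groups. The intronic Peak_10697, the most accessible per length, had 35, 29 and 20 counts against 35, 25 and 29, a log2 fold change of -0.032. Its scaled level spanned only 5.41 to 6.28 CPM over the 6 libraries. The third interval, upstream of the gene, had a log2 fold change of -0.020.

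Pdgfrb (ENSMUSG00000024620.5, mm9 chr18:61204804-61244715, plus strand), the β receptor, had the single Peak_37299 (chr18:61204684-61204882), which spanned its TSS. It had 136, 131 and 64 counts in CTL and 228, 115 and 112 in H2A.Z dKO. The deposited table lists it as called in H2A.Z dKO alone, a selection that favours a higher H2A.Z dKO value. Scaled, CTL ran from 18.1 to 28.4 CPM, and in H2A.Z dKO replicate 1 stood at 40.0 while the others, at 24.9 and 22.0, were within the CTL range. As a description after that selection, the gene's log2 fold change was 0.34 (SE 0.23, 95% interval -0.15 to 0.82, edgeR adjusted p 0.983). Without H2A.Z dKO replicate 1 it was 0.018, so the difference rested on that library. It was 0.51 without CTL replicate 2 and 0.21 without CTL replicate 3.

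Tcf7l2 (ENSMUSG00000024985.11, mm9 chr19:55816300-56008144, plus strand) held the largest share of the members' counts. Its 3 intervals summed to 518, 433 and 328 counts in CTL and 651, 413 and 456 in H2A.Z dKO, which is 90.5 ± 4.89 against 97.7 ± 14.3 CPM (SD, n = 3 each). H2A.Z dKO replicates 2 and 3 lay within the CTL range and replicate 1 above it. The log2 fold change was 0.12 (SE 0.11, 95% interval -0.13 to 0.36, edgeR adjusted p 0.990), and it was -0.013 without H2A.Z dKO replicate 1. Most of the counts came from Peak_39018 (chr19:55815896-55816375) over the first TSS, a CpG-rich window with 77.5% G or C. It had 432, 363 and 272 counts in CTL and 553, 338 and 377 in H2A.Z dKO, a log2 fold change of 0.11. Peak_39019 (chr19:55969958-55970085), at the TSS of the internal transcript Tcf7l2-007 and 153721 bp after the start of the gene, had the lowest level per length of the 16, 54.5 RPKM. It had 39, 31 and 26 counts against 36, 36 and 37, a log2 fold change of 0.067. That value was 0.15 without H2A.Z dKO replicate 1 and close to 0 without H2A.Z dKO replicate 2. Whether Tcf7l2 accessibility came from fibroblasts cannot be read from bulk nuclei, since the gene is also active in other cell types.

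For the other 2 transcription factors no interval met the rule. The nearest interval to Osr1 (mm9 chr12:9581248-9588305) was Peak_27067 (chr12:9591659-9591874), 3354 bp past the end of the gene and 10411 bp from its TSS, just outside the 10 kb limit. It had 107, 91 and 55 counts in CTL and 108, 64 and 68 in H2A.Z dKO. The nearest interval to Tcf21 (mm9 chr10:22537085-22539934) was 85491 bp from the gene, at the TSS of Tbpl1. The absence of an interval says only that the table used here holds none there, and it is not a measured level of 0.

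Col1a1 (ENSMUSG00000001506.9, mm9 chr11:94797538-94814356, plus strand), which encodes the α1 chain of type I collagen, had 4 intervals, 3 of them upstream of the gene and 1 within it. Their sums were 313, 330 and 202 counts in CTL and 443, 268 and 295 in H2A.Z dKO, or 60.0 ± 10.4 against 64.5 ± 11.4 CPM (SD, n = 3 each), with overlapping groups. The log2 fold change was 0.11 (SE 0.15, 95% interval -0.21 to 0.44, edgeR adjusted p 0.990). It was -0.045 without H2A.Z dKO replicate 1, 0.0025 without CTL replicate 1 and 0.26 without CTL replicate 2. It was -0.11 when intervals had to lie in the gene or within 2 kb of a TSS, which left only the one within the gene. No interval covered the first annotated TSS.

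The upstream Col1a1 intervals held the only difference among the members that passed an unadjusted p of 0.05. Peak_25730 (chr11:94791105-94791160), an intergenic interval of 56 bp centred 6406 bp upstream of the first TSS, had 17, 30 and 12 counts in CTL replicates 1 to 3 and 49, 31 and 34 in H2A.Z dKO. Scaled, this was 2.79, 6.49 and 3.40 CPM against 8.60, 6.71 and 6.67 CPM, or 4.23 ± 1.99 against 7.32 ± 1.10 (SD, n = 3 each). All H2A.Z dKO libraries were above all CTL libraries, although CTL replicate 2 came close to the lower H2A.Z dKO values. The log2 fold change was 0.82 (SE 0.29, 95% interval 0.22 to 1.42), with an edgeR unadjusted p of 0.00986 and an adjusted p of 0.972, so it did not pass over all intervals. It was 0.53 without CTL replicate 1, with an unadjusted edgeR p of 0.104, and 1.28 without CTL replicate 2. The deposited table lists this interval as called in H2A.Z dKO alone, so it entered the table through the group in which it was higher, a selection that favours a higher H2A.Z dKO value. Its p, interval and separation of the groups are therefore a description. Its sequence, printed above, holds the E-box letters CAGCTG, as 17.6% of all windows did.

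About 1 kb further upstream, the overlapping Peak_25728 and Peak_25729 did not show that difference. Peak_25728 (chr11:94790101-94790164) had 50, 63 and 34 counts in CTL and 89, 42 and 44 in H2A.Z dKO, with a log2 fold change of 0.11 and a 95% interval of -0.43 to 0.64. The longer Peak_25729 had a log2 fold change of 0.13. In both, H2A.Z dKO replicate 1 was the highest library and the other libraries were intermixed. Peak_25731 (chr11:94798409-94798554), in an intron 943 bp after the start of the gene, had 111, 84 and 75 counts against 107, 81 and 86, a log2 fold change of -0.11. It had the lowest log2 fold change of the 16, with a 95% interval of -0.48 to 0.27, and it was -0.032 without CTL replicate 3.

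Col1a2 (ENSMUSG00000029661.9, mm9 chr6:4454814-4491543, plus strand), the α2 chain of type I collagen, had 2 promoter intervals on either side of the TSS of the transcript Col1a2-001. The sums were 110, 116 and 81 counts in CTL and 179, 101 and 142 in H2A.Z dKO, or 22.0 ± 3.63 against 27.0 ± 4.82 CPM (SD, n = 3 each). The groups overlapped through H2A.Z dKO replicate 2. The log2 fold change was 0.31 (SE 0.18, 95% interval -0.075 to 0.70, edgeR adjusted p 0.983). Leaving out CTL replicate 1 gave 0.17 and leaving out H2A.Z dKO replicate 1 gave 0.19, whereas 0.44 remained without H2A.Z dKO replicate 2. The upstream Peak_12385, printed above, centred 46 bp before that TSS and in an intron of a longer transcript, had 30, 28 and 17 counts against 51, 25 and 35, a log2 fold change of 0.44 that was 0.23 without H2A.Z dKO replicate 1. Peak_12386 (chr6:4455526-4455696), which lay within an untranslated exon, had 80, 88 and 64 counts against 128, 76 and 107, a log2 fold change of 0.27 that was 0.11 without CTL replicate 1. The deposited table lists Peak_12385 as called in H2A.Z dKO alone and Peak_12386 in both groups. That selection favours a higher H2A.Z dKO value at Peak_12385 and in the sum, so those values are a description.

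Col3a1 (ENSMUSG00000026043.11, mm9 chr1:45368383-45406551, plus strand), which encodes type III collagen, had 2 overlapping intervals at its TSS. Summed, with the overlap counted in both, they had 87, 123 and 70 counts in CTL and 155, 106 and 136 in H2A.Z dKO, or 20.2 ± 6.19 against 25.6 ± 2.32 CPM (SD, n = 3 each). CTL replicate 1 was lowest and CTL replicate 2 lay among the H2A.Z dKO values. The log2 fold change was 0.36 (SE 0.21, 95% interval -0.086 to 0.80, edgeR adjusted p 0.983), and it was 0.13 when CTL replicate 1 was left out and 0.62 when CTL replicate 2 was. Peak_379 (chr1:45368328-45368542) had 59, 74 and 44 counts against 96, 72 and 86, a log2 fold change of 0.38 that was 0.20 without CTL replicate 1 and 0.60 without CTL replicate 2. The shorter Peak_380 within its downstream end had 28, 49 and 26 counts against 59, 34 and 50, a log2 fold change of 0.32. That value was 0.019 without CTL replicate 1 and 0.69 without CTL replicate 2, so its size rested on those libraries. The deposited table lists Peak_379 as called in H2A.Z dKO alone and Peak_380 in CTL alone. Such a call favours the group that made it, so the values of this gene are a description.

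Fn1 (ENSMUSG00000026193.8, mm9 chr1:71632094-71699774, minus strand), the fibronectin gene, had the single Peak_664 (chr1:71699660-71699939) over its TSS. The interval also spans TSSs and exons annotated to Apol7d on the opposite strand, so its accessibility cannot be told apart between these genes. It had 104, 99 and 75 counts in CTL and 136, 63 and 125 in H2A.Z dKO, or 19.9 ± 2.48 against 20.7 ± 6.10 CPM (SD, n = 3 each). H2A.Z dKO replicate 2 was the lowest of all 6 libraries and the other H2A.Z dKO libraries were the highest. The gene's log2 fold change was 0.075 (SE 0.21, 95% interval -0.39 to 0.54, edgeR adjusted p 0.991), and it fell below 0 without CTL replicate 1 (-0.037), H2A.Z dKO replicate 1 (-0.036) or H2A.Z dKO replicate 3 (-0.068). No interval met the rule at Dcn (mm9 chr10:96942245-96980777), the nearest being 70415 bp away.

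**Figure D3:**
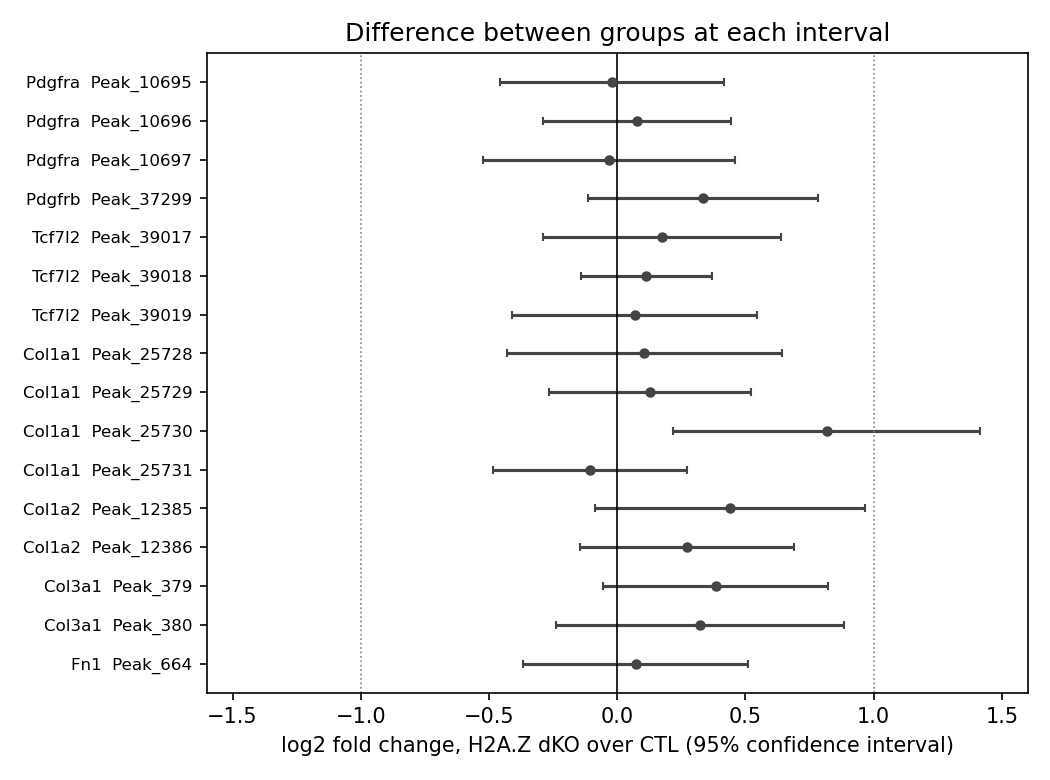
Log2 fold change of H2A.Z dKO over CTL (horizontal axis) for each of the 16 intervals, with its 95% confidence interval as a line. Col1a1 Peak_25730 (0.82) is the only interval whose line stays clear of 0, and 13 of the 16 points are above 0. Peak_25730 is among the 7 intervals listed as called in H2A.Z dKO alone.

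A further 60 genes of stroma, matrix and their signalling were examined as a list, of which 51 (85.0%) had an interval, 195 intervals in all. The 9 without were Lum, Fmod, Postn, Timp1, Pi16, Thy1, Ly6a, Twist1 and Lef1. Among the 51 summed genes, 0 passed the adjusted test, 4 were higher and 1 was lower at an unadjusted p of 0.05 (2.01% and 2.48% of all genes), 28 had log2 fold changes above 0 and 23 below, and the median was 0.022. Only 34.9% of their intervals were promoter intervals, against 68.8% for the members. The basement membrane collagens Col4a1 and Col4a2 had log2 fold changes of -0.064 and -0.061.

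The 3 genes of this list with the lowest p in each direction are given with their values. Col12a1, a fibril-associated collagen, had 60, 49 and 40 counts in CTL and 92, 68 and 84 in H2A.Z dKO, with H2A.Z dKO above CTL in all libraries and a log2 fold change of 0.59 (SE 0.18). The type VI collagen genes Col6a1 and Col6a3 had log2 fold changes of 0.37 and 0.24, with the groups overlapping at Col6a1 and H2A.Z dKO above CTL at Col6a3. In the other direction, Fbln1, a matrix glycoprotein gene, had 20, 14 and 11 counts against 7, 7 and 12, a log2 fold change of -0.89 (SE 0.33) at very low counts, and H2A.Z dKO was below CTL in all libraries once scaled. The proteoglycan gene Ogn (-0.51) and the basement membrane collagen gene Col15a1 (-0.31) followed, with an unadjusted edgeR p of 0.0559 and 0.0720, the groups overlapping at Ogn and H2A.Z dKO below CTL at Col15a1. The edgeR adjusted p was 0.983 for each of these 6 genes, so none passed over all genes. Over all genes, H2A.Z dKO lay above CTL without overlap at 4.23% and below it at 6.37%. Genes picked by a low p tend to have groups apart, so their separation is a description.

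Marker genes of the other cells in muscle were summed in the same way. The 17 muscle fibre genes with an interval took 1846 to 2059 CPM in CTL and 1993 to 2136 CPM in H2A.Z dKO. Of 10 endothelial genes, 8 had an interval, Emcn and Eng being without. Their sums were 310 to 339 CPM in CTL and 263 to 285 CPM in H2A.Z dKO, without overlap, and all 8 had log2 fold changes below 0 (median -0.21), where 48.7% of all genes were above 0. Of the 8, 3 (Kdr, Flt1 and Cldn5) were lower at an unadjusted p of 0.05 by edgeR, against 2.48% of all genes, and none passed after adjustment. The 6 pericyte and smooth muscle genes with an interval, of 8, summed to 159 to 169 CPM in CTL and 131 to 179 CPM in H2A.Z dKO. Only 3 of 9 annotated macrophage and leukocyte genes had an interval (383 to 404 against 350 to 396 CPM), and Ptprc, Itgam, Emr1 and Mrc1 had none. Most of that sum came from Cd68 (mean 289 CPM in CTL) and Cd14 (98.8), against 5.24 for Csf1r. The 10 kb rule also takes in intervals nearer to the TSS of another gene, so the sum cannot be read as accessibility in macrophages. For satellite cells 3 of 6 genes had an interval (51.9 to 76.2 against 76.7 to 77.3 CPM, without overlap), for Schwann cells 2 of 5 (60.9 to 68.0 against 61.3 to 68.2) and for adipocytes 2 of 4 (8.21 to 13.6 against 10.4 to 14.9). The endothelial sums, for which no test was run, were lower in all 3 H2A.Z dKO libraries, and their part in the values at the stromal genes was not tested. The satellite cell sums were apart by under 1 CPM, from CTL replicate 1 at 76.2 to the lowest H2A.Z dKO library at 76.7, and 0 of the 3 genes passed an unadjusted p of 0.05.

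**Figure D4:**
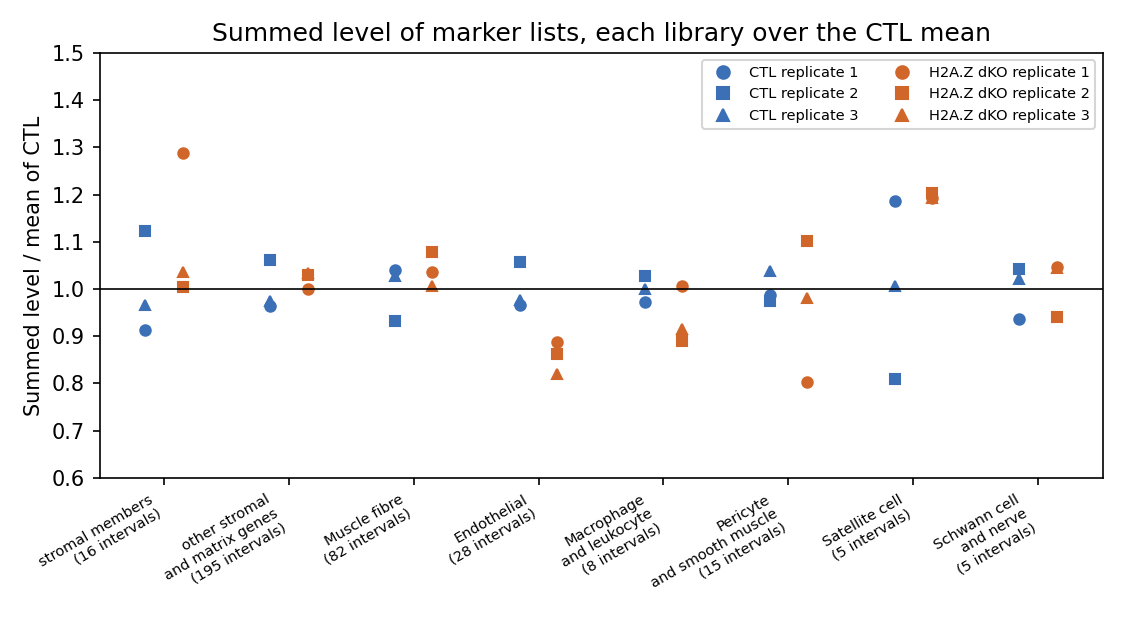
Summed accessibility of each marker list in each library relative to the mean of the CTL libraries, with 1 point per library; the adipocyte list, with 2 intervals, is not drawn. The stromal points of the 2 groups overlap, whereas those of the endothelial list lie lower in all 3 H2A.Z dKO libraries.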

How the data were processed

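The deposited table holds whole-number counts of fragment ends per interval. By the study's methods and the submitters' processing notes, the authors trimmed reads with Trimmomatic, aligned them to mm9 with Bowtie2, removed duplicates with Picard, called peaks with MACS2 at q 0.01 and counted shifted ends in the regions. By the methods, regions had to be called in all 3 replicates of a group, blacklisted regions were removed, and 2 calling models were used, of which the table is named for the wide one (73 bp around each end). It holds 39768 intervals, fewer than the methods give, and the reason is not given in the sources used here. Closed or removed regions have no value, and counts carry counting error in addition to the spread between libraries. The table's other columns, the authors' DESeq2 fold changes and p-values, were not used. Its header lacks 1 column name, and the 6 count columns were matched to the sample names in header order. Start positions were read as in BED files and are printed 1-based, since the sources do not state the convention.

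Counts were tested with edgeR 4.0.16 (TMM factors, quasi-likelihood, no filter, no block) in R 4.3.3, with p-values adjusted over all intervals or all genes; DESeq2 1.42.0 was an alternative. CPM is the count over the TMM-scaled total of the library times 1000000, and RPKM the count per kilobase of width and per 1000000 counts in intervals. Sequences were read from the mm9 genome and genes from GENCODE vM1. The test scripts were tested on simulated data. Members, gene lists and motifs were chosen with earlier results of these data known. All 10 genes were named; the intervals named by rule were, per gene, the one of highest RPKM, the one nearest a TSS, and any at an unadjusted p under 0.05. Peak_10695, Peak_25729 and Peak_39017 fall outside this rule, and mentions of them, of Col4a1, Col4a2 and of the endothelial genes were chosen after their values were seen. Alternatives were DESeq2, total-count scaling, edgeR's filter on low counts, a replicate block, each library left out, a 2 kb limit, intervals with another gene's TSS nearest left out and, chosen after seeing the data, scaling by promoter counts.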

Additional observations from a re-analysis of the deposited data

How the results depend on the processing

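Adjusted edgeR and DESeq2 calls numbered 0 for intervals, members and gene sums under every alternative run. With an unadjusted p of 0.05 as the call, 1970 intervals, 1 member interval and 777 gene sums passed by edgeR, against 756 intervals and 425 gene sums by DESeq2. With 1 library left out, these unadjusted calls ran from 1265 (without CTL replicate 3) to 3163 intervals (without H2A.Z dKO replicate 1), from 395 to 1466 gene sums for the same libraries, and from 0 to 4 member intervals. The replicate numbers did not pair the samples (same-number correlations -0.12, -0.063 and -0.050), and the replicate block gave 0 adjusted calls, with 1756 intervals and 640 gene sums at an unadjusted p of 0.05.

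The direction of member values changed in 7 of 42 refits of gene sums and 14 of 96 of intervals with 1 library left out, and otherwise in 1 of 49 and 0 of 80; that one was Col1a1 within 2 kb (-0.11), by construction, since fewer intervals remained. Leaving out libraries gave log2 fold changes of -0.068 to 0.29 for the Fn1 sum, -0.054 to 0.096 for Pdgfra, -0.045 to 0.26 for Col1a1 and -0.013 to 0.17 for Tcf7l2. For intervals the ranges were -0.072 to 0.29 at Peak_664, -0.15 to 0.075 at Peak_10695, -0.035 to 0.18 at Peak_10696, -0.085 to 0.016 at Peak_10697, -0.23 to 0.35 at Peak_25728, -0.046 to 0.34 at Peak_25729 and -0.032 to 0.18 at Peak_39018. The cause of these changes was not tested. Counts of 12 to 49 per library at Peak_25730 limit its precision.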
